A study of Mus musculus with 15 samples.

Results

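The change from budding organoids to spheroids was compared between 2 lines of mouse small intestinal organoids, 1 expressing SOX9 fused to the HaloTag (SOX9-Halo) and 1 expressing SOX9 fused to mEGFP (SOX9-mEGFP). For each gene the value is a difference of differences: the log2 change from SOX9-Halo_budding to SOX9-Halo_spheroid minus the log2 change from SOX9-mEGFP_budding to SOX9-mEGFP_spheroid. It rests on 12 of the 15 libraries of the series, 3 in each of these 4 conditions, and covers all 17560 genes with enough counts to be tested. Members were taken by condition and not by any measured value.

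All 4 conditions came from crypts of the small intestine of female C57BL/6J mice without other genetic changes. The coding sequence of mouse Sox9, joined to the tag and a V5 epitope, was delivered by lentivirus under the weak constitutive L30 promoter, followed by an IRES and a puromycin resistance gene, and each tag is represented by 1 stable line selected with the antibiotic. Budding organoids have crypt-like outgrowths, and spheroids are the round cysts that appeared in these lines later in culture. SOX9-Halo spheroids also carried H2B-mEGFP with Zeocin resistance, and SOX9-mEGFP spheroids H2B-mScarletI with Geneticin resistance. SOX9-Halo spheroids were taken at the latest passage of the 4 conditions. Tag, line, time in culture and second transgene therefore cannot be told apart. The remaining 3 libraries of the series, from organoids with a HaloTag joined to a nuclear localization signal, entered the fit, where they helped to set which genes were tested and the estimate of the spread between replicates, and are not described.

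SOX9 is a transcription factor of the crypt, required for Paneth cells and present in stem and progenitor cells. Along the villus, absorptive enterocytes carry digestive enzymes and transporters on their brush border, under transcription factors that include CDX2 and HNF4, while goblet, Paneth, enteroendocrine and tuft cells form the secretory lineages, most of which need ATOH1. Injured or fetal intestinal epithelium can instead grow as spheroids that express genes such as Ly6a and Clu, often together with targets of YAP.

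Between 28062722 and 40559766 reads per library were counted on genes, and 24293 to 34646 genes had at least 1 count. Levels are given in CPM, a library's counts on a gene relative to its scaled total on all genes (trimmed mean of M-values), which do not account for gene length, so that levels of different genes are not compared. Over the 12 libraries, 15 epithelial markers summed to between 6330.0 and 14042 CPM. They summed to 7877 to 8842 CPM in SOX9-Halo spheroids and to 13637 to 14042 CPM in SOX9-mEGFP spheroids. In budding organoids the sums were 6330.0 to 8552 CPM in SOX9-Halo and 8015 to 10466 CPM in SOX9-mEGFP. The 18 fibroblast and muscle markers summed to 1.96 to 12.4 CPM and the 19 immune markers to 3.68 to 55.4 CPM. The 12 endothelial markers reached 44.2 to 58.7 CPM in SOX9-Halo spheroids and 54.5 to 66.8 CPM in SOX9-mEGFP spheroids, against 3.72 to 12.7 CPM in budding organoids. Of the 12, 9 held at most 3 counts in every SOX9-Halo spheroid library and 8 in every SOX9-mEGFP one. Only 3 had enough counts to be tested, of which 1 rose in each line. The median log2 change of these 3 was -0.19 in SOX9-Halo and -0.23 in SOX9-mEGFP, so the endothelial markers did not rise as a group. The 13 neural and glial markers summed to 3.61 to 4.48 CPM in SOX9-Halo spheroids and to 12.9 to 38.8 CPM in SOX9-mEGFP spheroids, against 41.0 to 53.8 CPM in budding organoids. Their part in the results below was not tested. In bulk RNA, fewer cells of a type and less RNA per cell cannot be told apart.

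Sox9 (ENSMUSG00000000567, chromosome 11 from 112673009 to 112678586), which the transgene also encodes, was the first gene examined, since reads from the transgene and the endogenous gene cannot be told apart. It measured 39.8, 314 and 204 CPM in SOX9-Halo budding organoids, 314, 442 and 441 in SOX9-Halo spheroids, 339, 330.3 and 193 in SOX9-mEGFP budding organoids, and 260.0, 504 and 705 in SOX9-mEGFP spheroids. SOX9-Halo_budding replicate 1 lay below all other libraries, and the spheroids of the lines overlapped. Its difference between the lines was 0.33 ± 0.77 (adjusted p = 0.857) and did not pass the test. Xist (chromosome X from 102503972 to 102537573), the RNA that coats the inactive X chromosome in female cells, measured 285, 34.3 and 431 CPM in SOX9-Halo budding organoids, 74.4, 43.3 and 47.9 in SOX9-Halo spheroids, 0.0724, 0 and 0.186 in SOX9-mEGFP budding organoids, and 0.0793, 0.0895 and 0.0851 in SOX9-mEGFP spheroids. Both conditions of the SOX9-Halo line had Xist RNA, and the SOX9-mEGFP line had at most 0.186 CPM in any library. The 6 genes examined on the Y chromosome summed to at most 0.0298 CPM in any of the 12 libraries.

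The lines differed in how 1295 genes changed between budding organoids and spheroids. The difference was positive (called higher, a more positive change in SOX9-Halo) for 318 genes, 1.81% of those tested, and negative (called lower) for 977 genes, 5.56% of those tested. Calls needed an adjusted p of at most 0.01 (edgeR's quasi-likelihood test, Benjamini-Hochberg), a log2 difference of at least 1 in size and a mean normalized count reaching 10, which 15703 of the tested genes met. The median difference over all tested genes was -0.08 on the log2 scale. Changes and differences of single genes are log2 values throughout, differences are given ± their standard error, and where the changes of both lines stand together that of SOX9-Halo comes first. The lower count stayed between 719 and 918 with any 1 of the 12 libraries left out. The higher count fell to 199 without SOX9-Halo_budding replicate 1, to 198 and 202 without SOX9-Halo_spheroid replicates 2 and 3, and to 197 and 180 without SOX9-mEGFP_spheroid replicates 1 and 2. No call turned to the opposite direction under any alternative that was run.

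Within the SOX9-Halo line, 1849 genes rose (10.5% of those tested) and 2580 fell (14.7%) from budding organoids to spheroids. Within the SOX9-mEGFP line, 1498 rose (8.53%) and 1383 fell (7.88%). These changes sort the 1295 genes by where the difference arose. Among the 977 lower genes, 490 fell in SOX9-Halo and were not called in SOX9-mEGFP, and 299 fell in both lines, with a median log2 change of -8.51 in SOX9-Halo and -2.54 in SOX9-mEGFP. A further 110 rose in SOX9-mEGFP and were not called in SOX9-Halo, 42 fell in SOX9-Halo and rose in SOX9-mEGFP, 25 rose in both and 11 were called in neither. Among the 318 higher genes, 185 rose in SOX9-Halo and were not called in SOX9-mEGFP, 59 rose in both, 39 fell in SOX9-mEGFP and were not called in SOX9-Halo, 10 rose in SOX9-Halo and fell in SOX9-mEGFP, 5 fell in both and 20 were called in neither. The change was the larger one in SOX9-Halo for 1085 of the 1295 genes (83.8%), against 63.3% of all tested genes.

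The difference between the lines lay mostly between the spheroids. Comparing the spheroids directly, 630 genes were higher in SOX9-Halo (3.59% of those tested) and 1680 lower (9.57%). Of the 1295 genes, 1198 (92.5%) were called in the same direction in that comparison, which shares its 6 spheroid libraries with the difference of changes. Comparing budding organoids, 51 genes were higher in SOX9-Halo (0.29%) and 29 lower (0.165%), and 41 of the 1295 genes were among them. For 1274 of the 1295 genes (98.4%) the ranges of the 3 SOX9-Halo and the 3 SOX9-mEGFP spheroid libraries did not overlap, against 48.6% of all tested genes. The calls used these same spheroid libraries, so this separation is not independent evidence. In 288 of the 977 lower genes, every SOX9-Halo spheroid library held at most 3 counts. A count of 0 allows up to 3 counts, for counting error only. Where all libraries of a condition were at or under this floor, the fold is given as a lower bound against it. The other conditions enter such a bound at their measured mean, also where that mean is close to the floor.

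**Figure D1:**
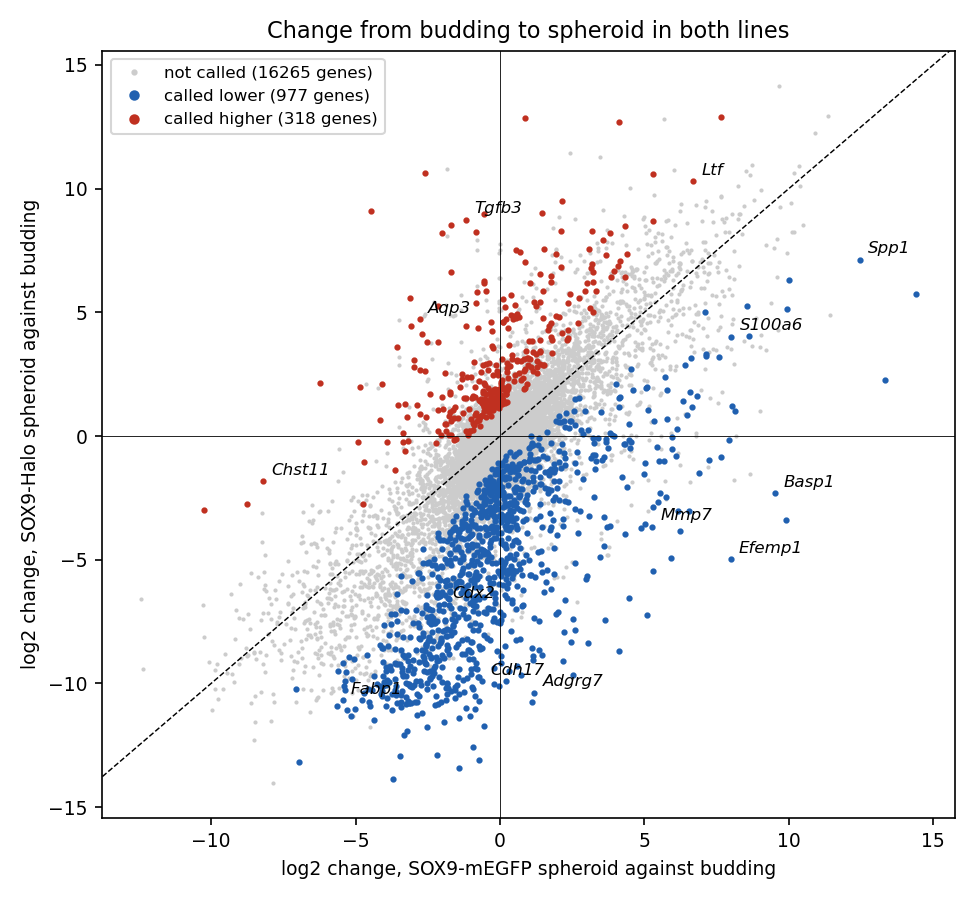
Log2 change from budding organoid to spheroid of each of the 17560 tested genes in SOX9-mEGFP (horizontal) and SOX9-Halo (vertical), with 318 genes called higher in red, 977 called lower in blue and the rest in grey. The dashed line marks equal change in both lines, and the blue genes run down the lower part of the plot, where the fall in SOX9-Halo exceeded that in SOX9-mEGFP.

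Of 21 tested transcription factors that maintain intestinal identity, 11 were lower (52.4%, against 5.56% of all tested genes). Among the lower ones were Cdx1, Cdx2, Gata6, Hnf4a, Hnf4g and Pdx1. Only 1 was higher (Gata5, 4.76%, against 1.81%), and the median difference was -2.12 on the log2 scale. With any 1 library left out, 9 to 10 were lower. In SOX9-Halo 13 of the 21 fell and 3 rose, with a median change of -3.04. In SOX9-mEGFP 8 fell and 1 rose, with a median of -1.17. Cdx2 (ENSMUSG00000029646, chromosome 5 from 147237615 to 147244091), a homeobox factor that sets intestinal fate, measured 272, 374 and 242 CPM in SOX9-Halo budding organoids, 2.89, 2.96 and 2.23 in SOX9-Halo spheroids, 315, 297 and 272 in SOX9-mEGFP budding organoids, and 103, 65.3 and 61.6 in SOX9-mEGFP spheroids. All spheroid libraries lay below all budding libraries in both lines, and the SOX9-Halo spheroids lay below every SOX9-mEGFP spheroid. The change was -6.78 in SOX9-Halo and -1.94 in SOX9-mEGFP, a difference of -4.84 ± 0.36 (adjusted p = 5.3e-07).

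Hnf4a (ENSMUSG00000017950, chromosome 2 from 163348728 to 163414830), a nuclear receptor that drives enterocyte genes, measured 956, 1149 and 854 CPM in SOX9-Halo budding organoids, 59.4, 45.9 and 38.6 in SOX9-Halo spheroids, 990.0, 931 and 740.3 in SOX9-mEGFP budding organoids, and 535, 468 and 370.0 in SOX9-mEGFP spheroids. It changed by -4.36 in SOX9-Halo and by -0.96 in SOX9-mEGFP, a difference of -3.41 ± 0.34 (adjusted p = 9.7e-06). The SOX9-mEGFP spheroid libraries lay below their budding libraries, and the SOX9-Halo spheroid libraries lay below both. Hnf4g (ENSMUSG00000017688, chromosome 3 from 3573084 to 3724860), its paralog in the gut, measured 202, 98.8 and 136 CPM in SOX9-Halo budding organoids, 0.0706, 0 and 0.0268 in SOX9-Halo spheroids, 252, 208 and 84.7 in SOX9-mEGFP budding organoids, and 32, 15.6 and 7.41 in SOX9-mEGFP spheroids. The SOX9-Halo spheroids were at the count floor, so that the change in SOX9-Halo was at least 163-fold lower than in SOX9-mEGFP (adjusted p = 0.00019). Cdx1 (ENSMUSG00000024619, chromosome 18 from 61151934 to 61169314), the second CDX factor, measured 119, 160.3 and 105 CPM in SOX9-Halo budding organoids, 0.0706, 0.0846 and 0.349 in SOX9-Halo spheroids, 166, 221 and 216 in SOX9-mEGFP budding organoids, and 7.75, 2.66 and 2.04 in SOX9-mEGFP spheroids, with a difference of -3.89 ± 0.72 (adjusted p = 0.00176). Both lines lost most Cdx1 RNA, and the 3 SOX9-Halo spheroid libraries lay below the 3 SOX9-mEGFP ones. The call for Cdx1 was lost with the replicate number as a block within each line (adjusted p = 0.0177).

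**Figure D2:**
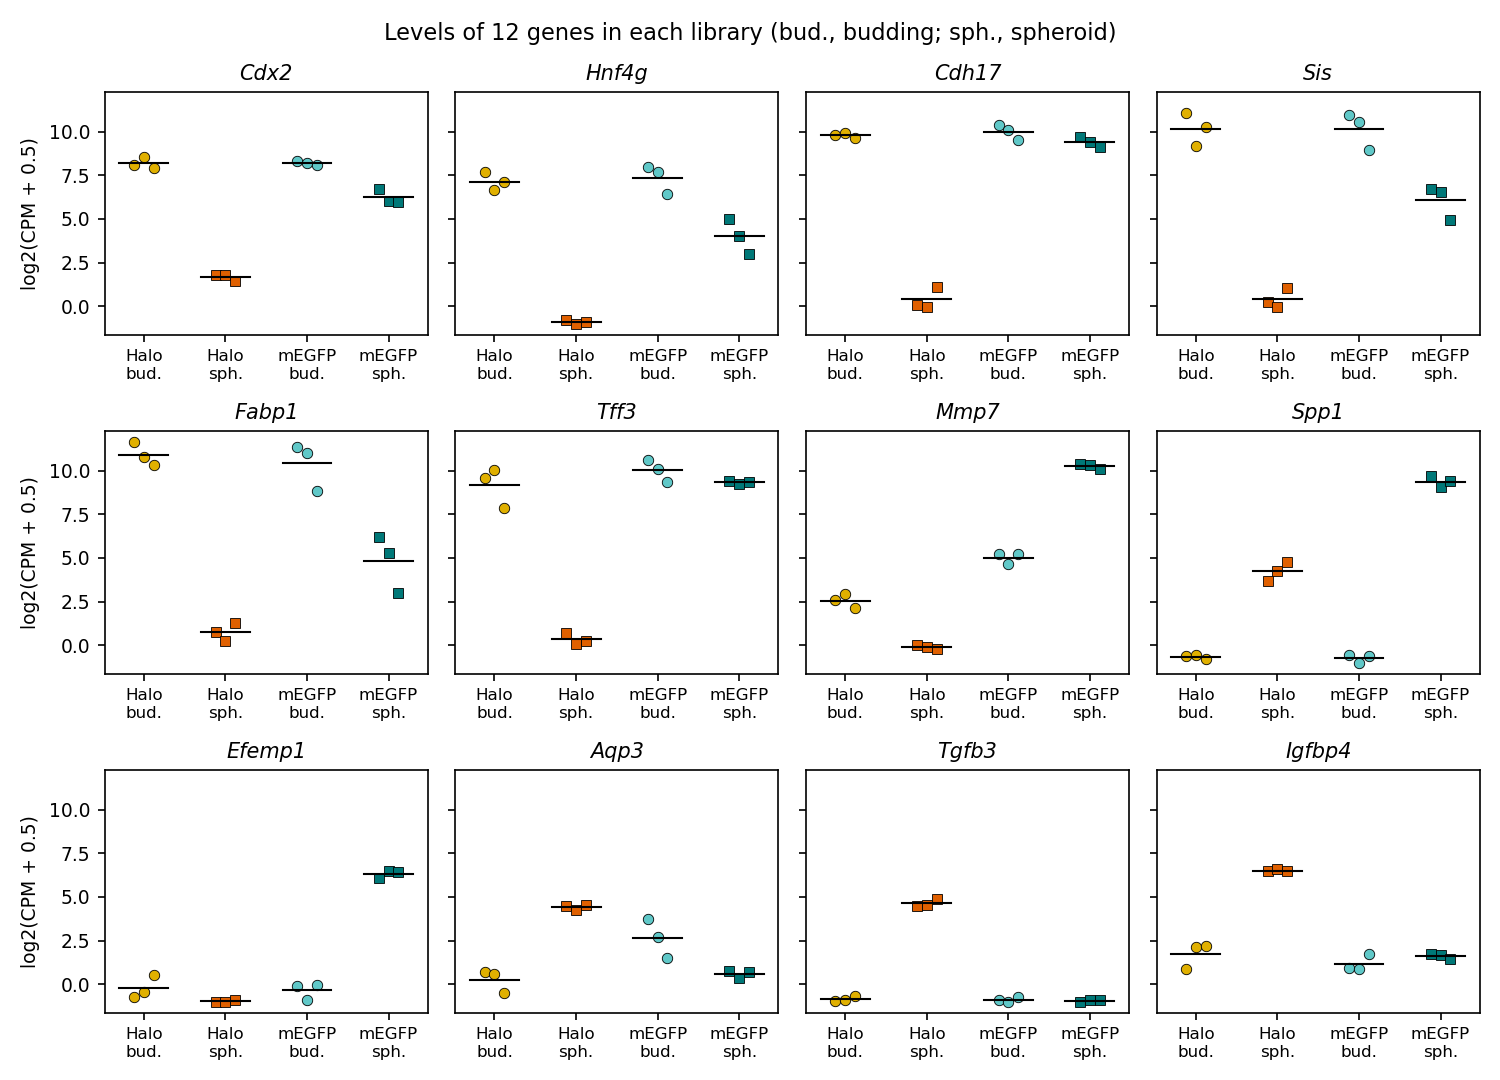
Level of 12 genes in each of the 12 libraries as log2(CPM + 0.5), with points for the 3 libraries of a condition and a bar at their mean on that scale. Cdx2, Hnf4g, Cdh17, Sis, Fabp1 and Tff3 are lowest in SOX9-Halo spheroids, Mmp7, Spp1 and Efemp1 are highest in SOX9-mEGFP spheroids, and Aqp3, Tgfb3 and Igfbp4 are highest in SOX9-Halo spheroids.

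Of 20 brush-border genes of the absorptive lineage, 14 were lower and 0 higher, and 14 were lower with any 1 library left out. Their median change was -7.91 in SOX9-Halo and -1.91 in SOX9-mEGFP. Sis (ENSMUSG00000027790, chromosome 3 from 72795890 to 72875196), sucrase-isomaltase, which splits sucrose, measured 2185, 581 and 1216 CPM in SOX9-Halo budding organoids, 0.671, 0.479 and 1.58 in SOX9-Halo spheroids, 1966, 1475 and 493 in SOX9-mEGFP budding organoids, and 107, 93.1 and 30.3 in SOX9-mEGFP spheroids. It fell in both lines (-10.49 and -4.10), with a difference of -6.39 ± 1.20 (adjusted p = 0.00201). Mgam (ENSMUSG00000068587, chromosome 6 from 40605765 to 40746057), maltase-glucoamylase, measured 578, 960.2 and 763 CPM in SOX9-Halo budding organoids, 8.08, 6.37 and 7.73 in SOX9-Halo spheroids, 1045, 774 and 602 in SOX9-mEGFP budding organoids, and 352, 454 and 420.2 in SOX9-mEGFP spheroids. Its SOX9-mEGFP spheroid libraries all lay below their budding libraries without being called (-0.98), while SOX9-Halo changed by -6.70, a difference of -5.72 ± 0.73 (adjusted p = 8.1e-05). Vil1 (ENSMUSG00000026175, chromosome 1 from 74448535 to 74475933), villin, which bundles actin in microvilli, measured 1056, 1245 and 843 CPM in SOX9-Halo budding organoids, 138, 119 and 96.7 in SOX9-Halo spheroids, 1210.1, 1026 and 645 in SOX9-mEGFP budding organoids, and 840.5, 687 and 775 in SOX9-mEGFP spheroids, with a difference of -2.83 ± 0.37 (adjusted p = 9.5e-05).

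Cdh17 (ENSMUSG00000028217, chromosome 4 from 11758147 to 11817895), the liver-intestine cadherin and a known CDX2 target, measured 903, 958 and 793 CPM in SOX9-Halo budding organoids, 0.565, 0.479 and 1.69 in SOX9-Halo spheroids, 1336, 1084 and 735 in SOX9-mEGFP budding organoids, and 818, 669 and 557 in SOX9-mEGFP spheroids. The SOX9-mEGFP spheroids overlapped their budding organoids (change -0.63, not called), whereas SOX9-Halo spheroids held at most 1.69 CPM, a change of -9.90 and a difference of -9.27 ± 0.65 (adjusted p = 3.8e-07). Adgrg7 (ENSMUSG00000022755, chromosome 16 from 56544972 to 56616218), an adhesion G protein-coupled receptor, measured 162, 98.3 and 105 CPM in SOX9-Halo budding organoids, 0.0353, 0.0564 and 0.161 in SOX9-Halo spheroids, 224, 194 and 104 in SOX9-mEGFP budding organoids, and 411, 482 and 294 in SOX9-mEGFP spheroids. It was not called in SOX9-mEGFP (1.18) and changed by -10.37 in SOX9-Halo, a difference of -11.55 ± 0.86 (adjusted p = 5.7e-07). Krt20 (ENSMUSG00000035775, chromosome 11 from 99319227 to 99328985), a keratin of differentiated villus cells, measured 159, 132 and 89.7 CPM in SOX9-Halo budding organoids, 0.565, 0.169 and 0.188 in SOX9-Halo spheroids, 285, 214 and 60.2 in SOX9-mEGFP budding organoids, and 93.3, 111 and 70.6 in SOX9-mEGFP spheroids, with a difference of -7.71 ± 0.83 (adjusted p = 1.7e-05). In all 3 genes every SOX9-Halo spheroid library lay far below every other library.

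Genes of fat absorption and chylomicron assembly were lower for 13 of 23 tested and higher for 0, with median changes of -7.16 in SOX9-Halo and -1.56 in SOX9-mEGFP. Fabp1 (ENSMUSG00000054422, chromosome 6 from 71176809 to 71182016), a cytosolic fatty acid carrier, measured 3185, 1791 and 1269 CPM in SOX9-Halo budding organoids, 1.2, 0.676 and 1.9 in SOX9-Halo spheroids, 2638, 2072 and 460.1 in SOX9-mEGFP budding organoids, and 72.6, 38.1 and 7.46 in SOX9-mEGFP spheroids. It fell in both lines, with a difference of -5.23 ± 1.04 (adjusted p = 0.0031). The call for Fabp1 was lost without any 1 of SOX9-Halo_spheroid replicates 1 or 2 (adjusted p from 0.0105 to 0.0127). Apoa4 (ENSMUSG00000032080, chromosome 9 from 46151994 to 46154757), an apolipoprotein of chylomicrons, measured 809, 648 and 199 CPM in SOX9-Halo budding organoids, 0.282, 0.225 and 0.671 in SOX9-Halo spheroids, 582, 482 and 94.8 in SOX9-mEGFP budding organoids, and 135, 118 and 72.9 in SOX9-mEGFP spheroids. The change in SOX9-mEGFP was -1.83 and was not called, and the difference was -8.59 ± 0.95 (adjusted p = 2.1e-05). Mttp (ENSMUSG00000028158, chromosome 3 from 137795612 to 137850729), which loads lipid onto apolipoprotein B, measured 1170.1, 1239.6 and 848 CPM in SOX9-Halo budding organoids, 6.11, 4.99 and 6.12 in SOX9-Halo spheroids, 1367, 1036 and 430.0 in SOX9-mEGFP budding organoids, and 219.7, 117 and 61 in SOX9-mEGFP spheroids, with a difference of -4.73 ± 0.67 (adjusted p = 0.00019). The SOX9-mEGFP spheroids lay below all their budding libraries and above all SOX9-Halo spheroids for Fabp1 and Mttp.

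Nutrient transport genes were lower for 13 of 29 tested and higher for 1 (Slc1a1, a glutamate transporter), which was no longer called once the median deviation of each chromosome was removed from each library. With 1 library left out, the higher count was 0 for any library other than SOX9-mEGFP_budding replicate 3. Slc5a1 (ENSMUSG00000011034, chromosome 5 from 33261563 to 33320214), the sodium-glucose cotransporter SGLT1, measured 1204, 1619 and 573 CPM in SOX9-Halo budding organoids, 2.29, 2.03 and 3.09 in SOX9-Halo spheroids, 2054, 1316 and 435 in SOX9-mEGFP budding organoids, and 96.5, 44 and 16.8 in SOX9-mEGFP spheroids. It fell in both lines (-8.84 and -4.60), with a difference of -4.24 ± 0.87 (adjusted p = 0.00372). The call for Slc5a1 was lost without any 1 of SOX9-mEGFP_budding replicate 2, SOX9-Halo_spheroid replicates 1 or 2 or SOX9-mEGFP_spheroid replicate 1 (adjusted p from 0.0105 to 0.0144). Slc39a4, a zinc importer, rose in SOX9-mEGFP (2.47) and was not called in SOX9-Halo (0.60), a difference of -1.87 ± 0.42 (adjusted p = 0.00692). The call for Slc39a4 was lost without any 1 library other than SOX9-Halo_spheroid replicates 1 and 3 (adjusted p from 0.0103 to 0.0249), and with the replicate number as a block within each line (adjusted p = 0.0126).

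Xenobiotic metabolism was the largest of these groups, with 33 of 59 tested members lower and 0 higher. Its median change was -6.48 in SOX9-Halo and -2.39 in SOX9-mEGFP. Cyp2c55 (ENSMUSG00000025002, chromosome 19 from 38995462 to 39031144), a cytochrome P450, measured 1399.9, 1171 and 1131 CPM in SOX9-Halo budding organoids, 0.918, 0.676 and 2.04 in SOX9-Halo spheroids, 1398, 1613 and 959 in SOX9-mEGFP budding organoids, and 409, 197 and 93.4 in SOX9-mEGFP spheroids, with a difference of -7.47 ± 0.69 (adjusted p = 3.9e-06). Ces2a (ENSMUSG00000055730, chromosome 8 from 105460630 to 105468266), a carboxylesterase, measured 1802, 1738 and 1563 CPM in SOX9-Halo budding organoids, 0.777, 0.423 and 1.77 in SOX9-Halo spheroids, 1082, 1054 and 366 in SOX9-mEGFP budding organoids, and 165, 69.8 and 104 in SOX9-mEGFP spheroids, with a difference of -7.85 ± 0.70 (adjusted p = 3e-06). Gstm3 (ENSMUSG00000004038, chromosome 3 from 107871012 to 107881730), a glutathione transferase, measured 607, 1245 and 1605 CPM in SOX9-Halo budding organoids, 1.59, 0.902 and 2.55 in SOX9-Halo spheroids, 1297, 1109 and 456 in SOX9-mEGFP budding organoids, and 195, 116 and 52.2 in SOX9-mEGFP spheroids, with a difference of -6.44 ± 0.87 (adjusted p = 0.00013). All 3 fell in both lines and further in SOX9-Halo. The Cyp2c, Gst, Ugt2b and Reg3 genes have near-identical relatives, so that uniquely aligned reads can undercount them or be split between them.

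**Figure D3:**
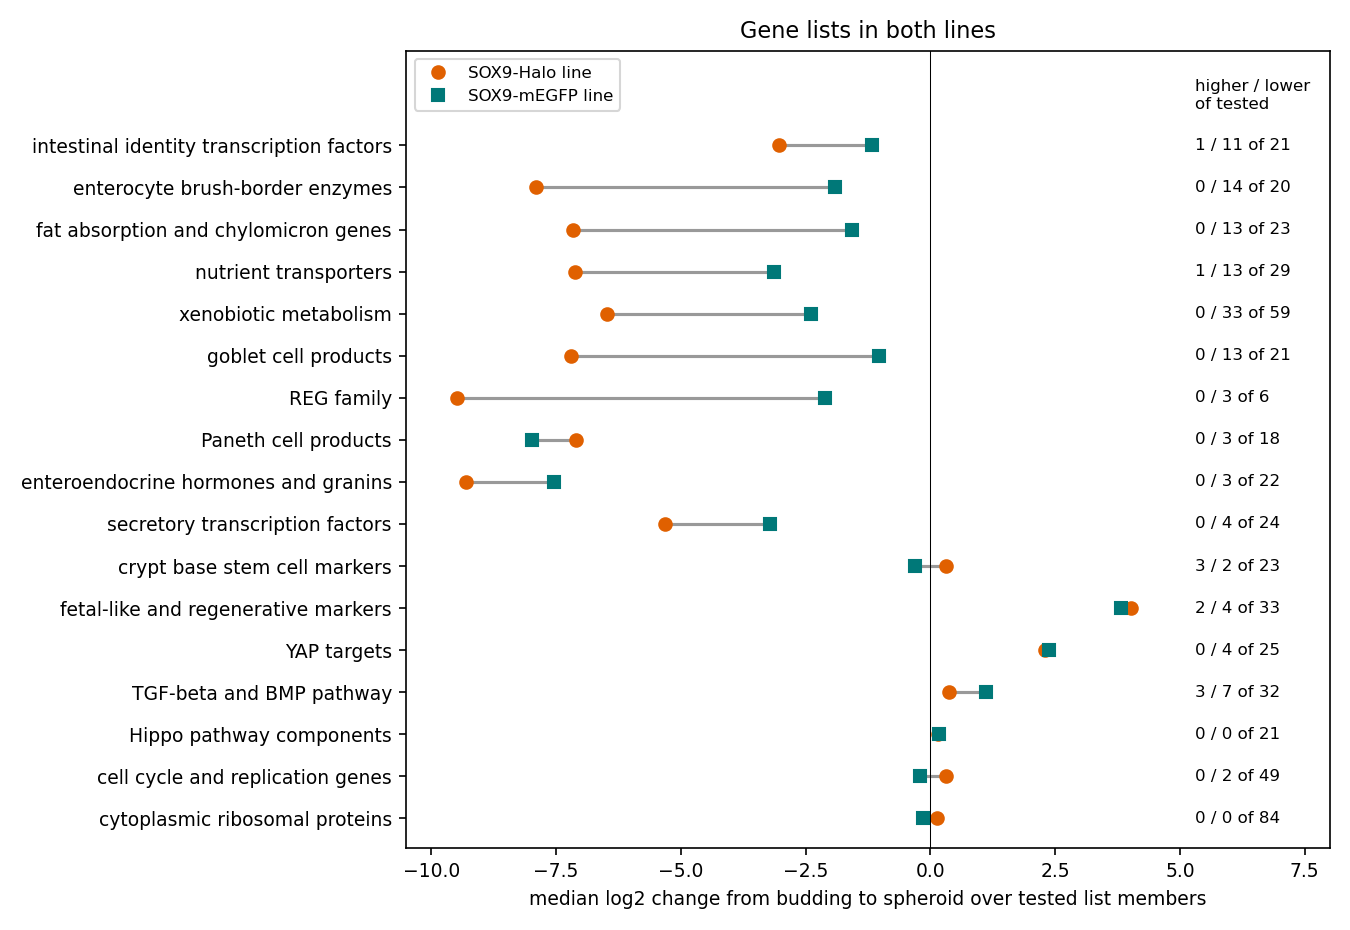
Median log2 change from budding organoid to spheroid over the tested members of the gene lists drawn in SOX9-Halo (circles) and SOX9-mEGFP (squares), with the numbers called higher and lower at the right. Among the lists drawn, REG, goblet, brush-border and fat absorption have the widest gaps between the lines, while the fetal-like list changed by 4.02 in SOX9-Halo and 3.82 in SOX9-mEGFP.

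The promoters of these genes were searched for the letters that CDX and HNF4 factors are known to bind, because Cdx1, Cdx2, Hnf4a and Hnf4g were among the lower genes. Windows from 250 bases before to 50 bases after the start were taken from RefSeq (GRCm38.p6), where 11223 tested genes matched 14326 windows, and both strands were read. The HNF4 letters AAAGTCC stood in 18.2% of 88 windows (75 genes) of the lower members of the absorptive and goblet lists, in 8.53% of 868 windows of all lower genes, in 4.62% of 303 windows of higher genes and in 4.02% of all windows. The CDX letters TTTATG stood in 10.2%, 10.1%, 7.26% and 6.92% of the same sets. The AP-1 letters TGANTCA stood in 14.8%, 9.91%, 7.92% and 5.75%, the SOX letters AACAAT in 6.82%, 10.3%, 4.62% and 6.10%, and the TEAD letters GGAATG in 15.9%, 15.7%, 12.2% and 12.8%. The lower absorptive and goblet genes thus held the HNF4 letters in 16 of 88 windows, which is a description of these windows and says nothing of binding. Members of the same lists that were not called were not counted apart, so these shares do not compare called with uncalled members. Stretches of 60 bases before the start are shown for 6 of these genes, with the letters matched in capitals on the gene's strand (GGACTTT and CATAAA are the same letters read on the other strand). For HNF4 they come from Slc5a1 (chr5:33104115-33104174, plus strand), Muc13 (chr16:33793857-33793916, plus strand), Alpi (chr1:87101607-87101666, minus strand) and Cyp3a11 (chr5:145879929-145879988, minus strand), and for CDX from Fabp1 (chr6:71199765-71199824, plus strand) and Sis (chr3:72967873-72967932, minus strand). Capitals mark only the letters of the factor named, and the Muc13 stretch also opens with the CDX letters CATAAA, left in lower case.
Slc5a1: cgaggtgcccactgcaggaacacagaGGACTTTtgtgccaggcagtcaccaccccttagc
Muc13: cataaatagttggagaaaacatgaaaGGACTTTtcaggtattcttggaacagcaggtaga
Alpi: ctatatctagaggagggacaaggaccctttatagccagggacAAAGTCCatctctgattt
Cyp3a11: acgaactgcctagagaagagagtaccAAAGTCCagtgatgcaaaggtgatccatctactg
Fabp1: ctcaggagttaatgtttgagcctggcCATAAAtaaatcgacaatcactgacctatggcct
Sis: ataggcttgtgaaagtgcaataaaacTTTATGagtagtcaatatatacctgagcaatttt

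Goblet cell products separated the lines as widely as the absorptive genes. Of 21 tested, 13 were lower and 0 higher, with median changes of -7.20 in SOX9-Halo and -1.02 in SOX9-mEGFP. Leaving out SOX9-Halo_budding replicate 1, SOX9-Halo_spheroid replicate 1 or 2, or SOX9-mEGFP_spheroid replicate 1 left 8 lower. Tff3 (ENSMUSG00000024029, chromosome 17 from 31344280 to 31348620), a trefoil peptide that goblet cells secrete with mucus, measured 754, 1035 and 234 CPM in SOX9-Halo budding organoids, 1.13, 0.564 and 0.671 in SOX9-Halo spheroids, 1534, 1103 and 663 in SOX9-mEGFP budding organoids, and 678, 592 and 659.7 in SOX9-mEGFP spheroids. SOX9-mEGFP spheroids (change -0.77, not called) stayed far above SOX9-Halo spheroids, a difference of -8.98 ± 0.69 (adjusted p = 7.9e-07). Muc13 (ENSMUSG00000022824, chromosome 16 from 33614407 to 33640304), a membrane mucin, measured 796, 897 and 569.7 CPM in SOX9-Halo budding organoids, 0.706, 0.225 and 1.21 in SOX9-Halo spheroids, 1201, 837 and 577 in SOX9-mEGFP budding organoids, and 319, 253 and 170.4 in SOX9-mEGFP spheroids, with a difference of -8.22 ± 0.66 (adjusted p = 1.1e-06). Fcgbp (ENSMUSG00000047730, chromosome 7 from 27770661 to 27820287), a protein of the mucus gel, measured 953, 5989.6 and 1208 CPM in SOX9-Halo budding organoids, 14.3, 19.6 and 21.4 in SOX9-Halo spheroids, 6380.0, 4107 and 2511 in SOX9-mEGFP budding organoids, and 1203, 1511 and 2588 in SOX9-mEGFP spheroids. Its SOX9-Halo spheroids lay below every other library, with a difference of -5.91 ± 1.01 (adjusted p = 0.00093).

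Zg16 (ENSMUSG00000049350, chromosome 7 from 126649302 to 126686500), a lectin of goblet granules, measured 35, 56.2 and 7.5 CPM in SOX9-Halo budding organoids, 0, 0 and 0 in SOX9-Halo spheroids, 132, 43.8 and 2.6 in SOX9-mEGFP budding organoids, and 27.7, 30.2 and 49.6 in SOX9-mEGFP spheroids. It was listed at 0 counts in all SOX9-Halo spheroids, so that its change was at least 219-fold lower than in SOX9-mEGFP (adjusted p = 0.00915). The call for Zg16 was lost without any 1 library other than SOX9-Halo_budding replicate 3 and SOX9-mEGFP_budding replicates 1 and 3 (adjusted p from 0.0149 to 0.0246), and with the replicate number as a block within each line (adjusted p = 0.0296). Of 24 secretory transcription factors, 4 were lower (Atoh1, Creb3l1, Insm1 and Neurog3, 16.7%, against 5.56% of all tested genes) and 0 higher. The median changes of the 24 were -5.32 in SOX9-Halo and -3.22 in SOX9-mEGFP. The call for Creb3l1 was lost without any 1 library other than SOX9-Halo_budding replicates 1 and 3, SOX9-Halo_spheroid replicate 1, SOX9-mEGFP_budding replicate 3 and SOX9-mEGFP_spheroid replicate 1 (adjusted p from 0.0109 to 0.0189), and with the replicate number as a block within each line (adjusted p = 0.0228). Atoh1 (ENSMUSG00000073043, chromosome 6 from 64706109 to 64708229), which commits cells to secretory fates, measured 12.7, 16.1 and 7.76 CPM in SOX9-Halo budding organoids, 0.0353, 0.0282 and 0 in SOX9-Halo spheroids, 18.4, 16.5 and 16.8 in SOX9-mEGFP budding organoids, and 9.97, 7.28 and 10.1 in SOX9-mEGFP spheroids. Its change in SOX9-mEGFP was -0.92 and was not called, while the change in SOX9-Halo was at least 71.4-fold lower (adjusted p = 4.8e-07). Insm1 (ENSMUSG00000068154, chromosome 2 from 146063841 to 146066940), an enteroendocrine factor, measured 8.72, 28.8 and 19 CPM in SOX9-Halo budding organoids, 0, 0 and 0.0268 in SOX9-Halo spheroids, 13.1, 14 and 23.4 in SOX9-mEGFP budding organoids, and 1.16, 0.686 and 1.02 in SOX9-mEGFP spheroids, and its change in SOX9-Halo was at least 11.8-fold lower (adjusted p = 0.00026). Atoh1 RNA thus remained in all 3 SOX9-mEGFP spheroid libraries, and Insm1 fell in both lines.

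Most Paneth and enteroendocrine products fell in both lines. Of 18 Paneth cell products 13 fell and 1 rose in SOX9-Halo, and 14 fell and 2 rose in SOX9-mEGFP, with medians of -7.10 and -7.98. Between the lines 3 of them were lower (Defa24, Lyz1 and Mmp7, 16.7%, against 5.56% of all tested genes) and 0 higher. Mmp7 rose in SOX9-mEGFP and is described with the genes that did so. Lyz1 (ENSMUSG00000069515, chromosome 10 from 117123698 to 117128775), the Paneth lysozyme, measured 424, 389.8 and 328 CPM in SOX9-Halo budding organoids, 0.318, 0.366 and 0.832 in SOX9-Halo spheroids, 523, 482 and 674 in SOX9-mEGFP budding organoids, and 23.2, 10.8 and 7.49 in SOX9-mEGFP spheroids. Both lines lost most of it, with a difference of -4.19 ± 0.55 (adjusted p = 0.0001). Defa24, an alpha-defensin with close relatives, changed by -10.21 in SOX9-Halo and by -7.07 in SOX9-mEGFP, a difference of -3.14 ± 0.48 (adjusted p = 0.00041). Of 22 enteroendocrine genes 21 fell in SOX9-Halo and 19 in SOX9-mEGFP, with medians of -9.30 and -7.55, and 3 were lower (Cpe, Ddc and Sct, 13.6%) and 0 higher. Cpe, a carboxypeptidase that trims prohormones, fell in SOX9-Halo (-1.83) and rose in SOX9-mEGFP (2.04), a difference of -3.87 ± 0.50 (adjusted p = 8.2e-05). Of 14 tuft cell markers, Ptgs1 was higher and Il17rb lower (7.14% each, against 1.81% and 5.56% of all tested genes). The call for Il17rb was lost without any 1 library other than SOX9-Halo_spheroid replicate 1 and SOX9-mEGFP_budding replicate 1 (adjusted p from 0.0146 to 0.031), and with the replicate number as a block within each line (adjusted p = 0.0127). With RLE scaling, with no filter on low counts, with only the 12 SOX9 libraries or with chromosome medians removed its adjusted p was 0.0104 to 0.0129.

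Of the 6 tested REG genes, whose products are secreted lectins of the gut, 3 were lower and 0 higher. Reg3g (ENSMUSG00000030017, chromosome 6 from 78443246 to 78445859) measured 66.4, 68.9 and 118 CPM in SOX9-Halo budding organoids, 0.847, 0.592 and 0.778 in SOX9-Halo spheroids, 124, 53.4 and 17.7 in SOX9-mEGFP budding organoids, and 130.1, 125 and 79.5 in SOX9-mEGFP spheroids. Its SOX9-mEGFP spheroids lay within the range of their budding organoids or just above, and its difference was -7.61 ± 0.83 (adjusted p = 1.9e-05). Reg1 (ENSMUSG00000059654, chromosome 6 from 78399694 to 78405828) measured 238, 152 and 55.6 CPM in SOX9-Halo budding organoids, 0.0353, 0 and 0 in SOX9-Halo spheroids, 13.8, 8.69 and 2.48 in SOX9-mEGFP budding organoids, and 3.09, 3.61 and 2.64 in SOX9-mEGFP spheroids. It was higher in SOX9-Halo than in SOX9-mEGFP budding organoids, and its change in SOX9-Halo was at least 616-fold lower (adjusted p = 1.9e-05). Mucosal defence genes moved in both directions. Of 13 tested, 5 were lower (Duox2, Duoxa2, Lypd8, Nos2 and Pigr, 38.5%, against 5.56% of all tested genes). A further 2 were higher (Ltf and Wfdc2, 15.4%, against 1.81%), or 1 without SOX9-mEGFP_budding replicate 3. For 1 of these called genes, conditions at the count floor left the direction not fixed.

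Pigr (ENSMUSG00000026417, chromosome 1 from 130754397 to 130779986), which carries IgA across the epithelium, measured 2633, 2785 and 2029 CPM in SOX9-Halo budding organoids, 2.01, 0.733 and 3.17 in SOX9-Halo spheroids, 1819, 1727 and 1025 in SOX9-mEGFP budding organoids, and 629, 470.2 and 294 in SOX9-mEGFP spheroids, with a difference of -8.58 ± 0.68 (adjusted p = 9.4e-07). Lypd8 (ENSMUSG00000013643, chromosome 11 from 58269863 to 58281554), which binds flagellated bacteria, measured 194, 239 and 87 CPM in SOX9-Halo budding organoids, 0.106, 0 and 0.161 in SOX9-Halo spheroids, 222, 168 and 82.2 in SOX9-mEGFP budding organoids, and 42, 20 and 37.6 in SOX9-mEGFP spheroids, with a difference of -8.63 ± 0.81 (adjusted p = 4.7e-06). Ltf (ENSMUSG00000032496, chromosome 9 from 110848339 to 110871835), lactoferrin, an iron-binding defence protein, went the other way and measured 0.119, 0.261 and 0.64 CPM in SOX9-Halo budding organoids, 313, 397 and 555 in SOX9-Halo spheroids, 0.362, 0.186 and 0.418 in SOX9-mEGFP budding organoids, and 24.4, 32.6 and 44.1 in SOX9-mEGFP spheroids. It rose in both lines and further in SOX9-Halo, whose spheroid libraries all lay above the SOX9-mEGFP ones, with a difference of 3.62 ± 0.64 (adjusted p = 0.00132). Pigr and Lypd8 fell in both lines and were nearly lost in SOX9-Halo spheroids.

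A second kind of lower gene rose in the SOX9-mEGFP spheroids. Mmp7 (ENSMUSG00000018623, chromosome 9 from 7692091 to 7699587), a metalloproteinase that Paneth cells use to activate defensins, measured 5.45, 7.07 and 3.9 CPM in SOX9-Halo budding organoids, 0.494, 0.423 and 0.376 in SOX9-Halo spheroids, 36.5, 24.4 and 36.7 in SOX9-mEGFP budding organoids, and 1327, 1305 and 1106 in SOX9-mEGFP spheroids. It fell in SOX9-Halo (-3.67) and rose in SOX9-mEGFP (5.26), a difference of -8.93 ± 0.40 (adjusted p = 7.8e-09). The 3 SOX9-mEGFP spheroid libraries lay far above every other library. Efemp1 (ENSMUSG00000020467, chromosome 11 from 28803150 to 28876825), an extracellular matrix glycoprotein, measured 0.0948, 0.232 and 0.959 CPM in SOX9-Halo budding organoids, 0, 0 and 0.0268 in SOX9-Halo spheroids, 0.434, 0.0309 and 0.464 in SOX9-mEGFP budding organoids, and 66.3, 90.6 and 84.7 in SOX9-mEGFP spheroids. It rose in SOX9-mEGFP (7.99), and its change in SOX9-Halo was at least 1234-fold lower (adjusted p = 1.2e-05). Basp1 (ENSMUSG00000045763, chromosome 15 from 25363350 to 25414981), a membrane-bound signalling protein, measured 0.19, 0.029 and 0.262 CPM in SOX9-Halo budding organoids, 0, 0.0282 and 0.0537 in SOX9-Halo spheroids, 0.181, 0 and 0.162 in SOX9-mEGFP budding organoids, and 70.6, 93 and 101 in SOX9-mEGFP spheroids. It was near 0 in all but the SOX9-mEGFP spheroids. With these low budding levels taken as measured, its change in SOX9-Halo was at least 1369-fold lower (adjusted p = 5.3e-05).

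The genes called in opposite directions numbered 52, of which 42 fell in SOX9-Halo and rose in SOX9-mEGFP. Gnai1 (ENSMUSG00000057614, chromosome 5 from 18469193 to 18565655), an inhibitory G protein subunit, measured 0.711, 0.754 and 0.174 CPM in SOX9-Halo budding organoids, 0, 0 and 0 in SOX9-Halo spheroids, 0.579, 0.186 and 0.232 in SOX9-mEGFP budding organoids, and 11.3, 10 and 11.9 in SOX9-mEGFP spheroids, and its change in SOX9-Halo was at least 201-fold lower (adjusted p = 1.5e-05). Gramd1a (ENSMUSG00000001248, chromosome 7 from 30829551 to 30855392), a sterol transfer protein, measured 0.948, 1.65 and 1.8 CPM in SOX9-Halo budding organoids, 0, 0.0282 and 0.0537 in SOX9-Halo spheroids, 0.796, 0.65 and 2.62 in SOX9-mEGFP budding organoids, and 46.1, 48.7 and 68.9 in SOX9-mEGFP spheroids, and its change in SOX9-Halo was at least 654-fold lower (adjusted p = 9.4e-07). Both were at the count floor in SOX9-Halo spheroids and highest in SOX9-mEGFP spheroids. Id3 (ENSMUSG00000007872, chromosome 4 from 135870808 to 135873066), a target of BMP signalling that blocks helix-loop-helix factors, measured 4.05, 4.29 and 5.73 CPM in SOX9-Halo budding organoids, 0.565, 0.705 and 0.429 in SOX9-Halo spheroids, 9.12, 8.01 and 8.21 in SOX9-mEGFP budding organoids, and 59.8, 48.4 and 64 in SOX9-mEGFP spheroids, with a difference of -5.81 ± 0.36 (adjusted p = 1.4e-07). Its SOX9-Halo spheroids lay below and its SOX9-mEGFP spheroids above all budding libraries.

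Spp1 (ENSMUSG00000029304, chromosome 5 from 104582165 to 104589235), osteopontin, a secreted phosphoprotein, measured 0.142, 0.174 and 0.0872 CPM in SOX9-Halo budding organoids, 12.4, 18.8 and 27 in SOX9-Halo spheroids, 0.181, 0 and 0.162 in SOX9-mEGFP budding organoids, and 813, 529.6 and 681 in SOX9-mEGFP spheroids. It rose in both lines (7.13 and 12.46), with SOX9-mEGFP spheroids far above SOX9-Halo spheroids and a difference of -5.33 ± 1.01 (adjusted p = 0.00217). The call for Spp1 was lost without any 1 of SOX9-Halo_budding replicates 1 or 2 (adjusted p from 0.0119 to 0.0133). S100a6 (ENSMUSG00000001025, chromosome 3 from 90520140 to 90535843), a calcium-binding protein, measured 12.9, 13.6 and 25.8 CPM in SOX9-Halo budding organoids, 295, 297 and 258 in SOX9-Halo spheroids, 1.92, 1.76 and 2.48 in SOX9-mEGFP budding organoids, and 540.0, 497 and 561 in SOX9-mEGFP spheroids. It rose by 4.02 in SOX9-Halo and by 8.01 in SOX9-mEGFP, a difference of -3.99 ± 0.35 (adjusted p = 2.5e-06). The budding organoids of the lines already differed, with SOX9-mEGFP the lower, so that part of this value came from the starting level. Lamb1 (ENSMUSG00000002900, chromosome 12 from 31315030 to 31379658), a laminin chain, measured 0.593, 1.33 and 0.523 CPM in SOX9-Halo budding organoids, 1.66, 1.32 and 0.805 in SOX9-Halo spheroids, 3.11, 1.18 and 0.812 in SOX9-mEGFP budding organoids, and 39.9, 64.5 and 98.7 in SOX9-mEGFP spheroids. It rose in SOX9-mEGFP (5.33) and was not called in SOX9-Halo (0.62), a difference of -4.71 ± 0.73 (adjusted p = 0.00042).

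Most fetal-like and regenerative genes rose in both lines. Of 33 tested, 27 rose in SOX9-Halo and 30 in SOX9-mEGFP, with median changes of 4.02 and 3.82. Between the lines 2 were higher (Il33 and Krt7, 6.06%, against 1.81% of all tested genes) and 4 lower (Anxa10, F3, S100a6 and Spp1, 12.1%, against 5.56%). The higher count was 4 without SOX9-Halo_budding replicate 3, and 1 without any 1 of SOX9-Halo_budding replicate 1, SOX9-mEGFP_budding replicate 3, SOX9-Halo_spheroid replicate 2 or the SOX9-mEGFP_spheroid libraries. The call for F3 was lost without any 1 library other than SOX9-Halo_budding replicates 1 and 2, SOX9-Halo_spheroid replicate 1, SOX9-mEGFP_budding replicate 1 and SOX9-mEGFP_spheroid replicate 1 (adjusted p from 0.0102 to 0.0166). Ly6a (ENSMUSG00000075602, chromosome 15 from 74863840 to 74869880), the Sca-1 surface protein, measured 1.68, 1.94 and 7.36 CPM in SOX9-Halo budding organoids, 277, 141 and 168 in SOX9-Halo spheroids, 6.3, 2.97 and 8.47 in SOX9-mEGFP budding organoids, and 438, 464 and 411 in SOX9-mEGFP spheroids. Its difference of -0.46 ± 0.67 (adjusted p = 0.757) did not pass the test and ran from -0.81 to 0.55 with 1 library left out. Clu (ENSMUSG00000022037, chromosome 14 from 66190200 to 66218999), clusterin, a marker of revival stem cells, measured 17, 13.7 and 44 CPM in SOX9-Halo budding organoids, 1898, 2071 and 2518 in SOX9-Halo spheroids, 15.3, 14.4 and 24.6 in SOX9-mEGFP budding organoids, and 4729, 3820.5 and 4805 in SOX9-mEGFP spheroids, with a difference of -1.50 ± 0.64 (adjusted p = 0.16) that did not pass, although it did with no filter on low counts (adjusted p = 0.000811). For both genes all spheroid libraries lay above all budding libraries.

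Krt7 (ENSMUSG00000023039, chromosome 15 from 101308924 to 101328194), a keratin of simple ducts, measured 58.3, 76.1 and 56.3 CPM in SOX9-Halo budding organoids, 1279, 1248 and 1152 in SOX9-Halo spheroids, 122, 111 and 181 in SOX9-mEGFP budding organoids, and 687, 739.8 and 711 in SOX9-mEGFP spheroids, with a difference of 1.90 ± 0.39 (adjusted p = 0.00394). The call for Krt7 was lost without any 1 of SOX9-Halo_budding replicate 1, SOX9-mEGFP_budding replicate 3, SOX9-Halo_spheroid replicate 2 or SOX9-mEGFP_spheroid replicates 1, 2 or 3 (adjusted p from 0.0104 to 0.0133). Il33, an alarmin, rose in both lines (7.08 and 4.17), a difference of 2.91 ± 0.48 (adjusted p = 0.00075). It lies on chromosome 19, and its difference was 1.93 with an adjusted p of 0.0235 once chromosome medians were removed. Of 25 YAP targets, 4 were lower (Arhgef17, Cald1, F3 and Nt5e, 16%, against 5.56% of all tested genes) and 0 higher. The median changes of the YAP targets were 2.29 and 2.37. Without any 1 of SOX9-Halo_budding replicate 3, SOX9-mEGFP_budding replicates 2 or 3, SOX9-Halo_spheroid replicates 2 or 3, or SOX9-mEGFP_spheroid replicates 2 or 3, 2 of them were lower. The Hippo pathway components had 0 of 21 called in either direction. Yap1 itself measured 75.5, 94.2 and 93.9 CPM in SOX9-Halo budding organoids, 74.2, 85.2 and 89.6 in SOX9-Halo spheroids, 80.3, 75.3 and 92.2 in SOX9-mEGFP budding organoids, and 90, 80.7 and 107 in SOX9-mEGFP spheroids, with a difference of -0.25 ± 0.26 (adjusted p = 0.644) that did not pass. Tead4, a DNA-binding partner of YAP, rose in both lines (4.36 and 3.34), and its difference of 1.02 ± 0.51 (adjusted p = 0.247) did not pass.

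Of 23 crypt base stem cell markers, 3 were higher (Nkd1, Notum and Tnfrsf19, 13.0%, against 1.81% of all tested genes). A further 2 were lower (Msi1 and Sp5, 8.70%, against 5.56%). The lower count was 4 without SOX9-mEGFP_budding replicate 3, and 1 without any 1 of SOX9-Halo_budding replicate 3, SOX9-mEGFP_budding replicates 1 or 2, the SOX9-Halo_spheroid libraries or SOX9-mEGFP_spheroid replicate 3. Lgr5 (ENSMUSG00000020140, chromosome 10 from 115286216 to 115423685), the stem cell receptor for R-spondins, measured 23.4, 54.3 and 41 CPM in SOX9-Halo budding organoids, 7.09, 10.2 and 11.5 in SOX9-Halo spheroids, 13.4, 14.8 and 71.9 in SOX9-mEGFP budding organoids, and 35.9, 36.3 and 65.2 in SOX9-mEGFP spheroids. The SOX9-Halo spheroids lay below every other library, and SOX9-mEGFP spheroids lay within the range of their budding organoids. The difference of -2.50 ± 0.75 (adjusted p = 0.0388) did not pass, but it passed with the replicate number as a block (-2.72, adjusted p = 0.00707) and within each line (-2.82, adjusted p = 0.0025), as well as in DESeq2 (adjusted p = 0.00793) and with no filter on low counts (adjusted p = 3.41e-07). Olfm4 (ENSMUSG00000022026, chromosome 14 from 80221521 to 80260579), another stem cell marker, measured 39, 10.8 and 137 CPM in SOX9-Halo budding organoids, 0.106, 0.141 and 0.295 in SOX9-Halo spheroids, 5.07, 20.6 and 463 in SOX9-mEGFP budding organoids, and 1.96, 3.76 and 1.65 in SOX9-mEGFP spheroids. It fell in both lines, and its difference of -2.31 ± 2.02 (adjusted p = 0.556) did not pass, although it did with no filter on low counts (adjusted p = 7.88e-05). Nkd1 (ENSMUSG00000031661, chromosome 8 from 89247890 to 89324577), a Wnt target that dampens Wnt signalling, measured 0.213, 0.957 and 0.93 CPM in SOX9-Halo budding organoids, 83.3, 144 and 161 in SOX9-Halo spheroids, 0.652, 0.65 and 2.71 in SOX9-mEGFP budding organoids, and 1.4, 2.06 and 8.32 in SOX9-mEGFP spheroids, with a difference of 6.03 ± 1.04 (adjusted p = 0.00102). Tnfrsf19 (ENSMUSG00000060548, chromosome 14 from 61201283 to 61284366), known as TROY, measured 0.19, 0.638 and 1.08 CPM in SOX9-Halo budding organoids, 67.8, 50.3 and 50.8 in SOX9-Halo spheroids, 1.01, 1.58 and 8.28 in SOX9-mEGFP budding organoids, and 10.2, 9.67 and 17.6 in SOX9-mEGFP spheroids, with a difference of 4.72 ± 0.95 (adjusted p = 0.00328). The call for Tnfrsf19 was lost without any 1 of SOX9-mEGFP_spheroid replicates 1 or 2 (adjusted p from 0.0121 to 0.0128). Nkd1 and Tnfrsf19 rose in SOX9-Halo and were not called in SOX9-mEGFP.

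Of the higher genes with the largest differences, Tgfb3, Padi4 and Grhl3 were low in every library outside the SOX9-Halo spheroids. Tgfb3 (ENSMUSG00000021253, chromosome 12 from 86102756 to 86126301), a transforming growth factor beta, measured 0.0237, 0.029 and 0.116 CPM in SOX9-Halo budding organoids, 22.2, 22.9 and 29.5 in SOX9-Halo spheroids, 0.0362, 0 and 0.0928 in SOX9-mEGFP budding organoids, and 0, 0.0298 and 0.0284 in SOX9-mEGFP spheroids. It rose in SOX9-Halo (8.74) and was at the count floor in SOX9-mEGFP spheroids. With the budding levels taken as measured, its change was at least 224-fold higher in SOX9-Halo (adjusted p = 0.00038). The budding libraries of both lines held at most 0.116 CPM, close to the floor, and the bound does not cover counting error in them. The call for Tgfb3 was lost without SOX9-mEGFP_budding replicate 3 (adjusted p = 0.0622). Padi4 (ENSMUSG00000025330, chromosome 4 from 140472808 to 140501939), an enzyme that converts arginine to citrulline in proteins, measured 0.166, 0.058 and 0.174 CPM in SOX9-Halo budding organoids, 65.6, 66.6 and 76.3 in SOX9-Halo spheroids, 0.145, 0.155 and 0.0928 in SOX9-mEGFP budding organoids, and 0.0793, 0.119 and 0.0568 in SOX9-mEGFP spheroids, with a difference of 9.55 ± 0.66 (adjusted p = 3.4e-07). Grhl3 (ENSMUSG00000037188, chromosome 4 from 135268329 to 135300992), a transcription factor of barrier epithelia, measured 0.308, 0.319 and 0.872 CPM in SOX9-Halo budding organoids, 31.7, 28.5 and 27.7 in SOX9-Halo spheroids, 2.21, 1.36 and 1.42 in SOX9-mEGFP budding organoids, and 1.06, 0.925 and 1.56 in SOX9-mEGFP spheroids, with a difference of 6.36 ± 0.58 (adjusted p = 3.8e-06). In all 3 genes every SOX9-Halo spheroid library lay at 22.2 CPM or more and every other library at 2.21 CPM or less.

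Aqp3 (ENSMUSG00000028435, chromosome 4 from 41092722 to 41098183), a water and glycerol channel, measured 1.11, 1.01 and 0.204 CPM in SOX9-Halo budding organoids, 21.7, 18.2 and 23 in SOX9-Halo spheroids, 12.8, 6.1 and 2.3 in SOX9-mEGFP budding organoids, and 1.16, 0.776 and 1.14 in SOX9-mEGFP spheroids. It rose in SOX9-Halo (4.74) and fell in SOX9-mEGFP (-2.77), a difference of 7.51 ± 0.95 (adjusted p = 6.9e-05). All SOX9-mEGFP budding libraries lay above the SOX9-Halo ones (budding difference -3.16, not called), so that part of this value came from the starting level. Igfbp4 (ENSMUSG00000017493, chromosome 11 from 98932064 to 98945218), an IGF-binding protein, measured 1.35, 3.86 and 4.16 CPM in SOX9-Halo budding organoids, 87.5, 96.2 and 88.5 in SOX9-Halo spheroids, 1.41, 1.3 and 2.83 in SOX9-mEGFP budding organoids, and 2.86, 2.75 and 2.21 in SOX9-mEGFP spheroids, with a difference of 4.38 ± 0.55 (adjusted p = 7.1e-05). Chst11 (ENSMUSG00000034612, chromosome 10 from 82821180 to 83031734), a chondroitin sulfotransferase, fell in both lines and measured 6.78, 9.89 and 6.74 CPM in SOX9-Halo budding organoids, 2.51, 2.23 and 1.93 in SOX9-Halo spheroids, 10.2, 10.4 and 15.8 in SOX9-mEGFP budding organoids, and 0.106, 0 and 0 in SOX9-mEGFP spheroids. It was nearly lost in SOX9-mEGFP spheroids, which gave a positive difference of 6.40 ± 0.72 (adjusted p = 2.5e-05). Aldh3b2 (ENSMUSG00000075296, chromosome 19 from 4022323 to 4031647), an aldehyde dehydrogenase on chromosome 19, measured 0.379, 0.812 and 0.378 CPM in SOX9-Halo budding organoids, 93.4, 58.5 and 53.6 in SOX9-Halo spheroids, 1.45, 2.57 and 4.2 in SOX9-mEGFP budding organoids, and 5.16, 5.16 and 4.91 in SOX9-mEGFP spheroids, with a difference of 6.15 ± 0.59 (adjusted p = 5.8e-06). Fermt2 (ENSMUSG00000037712, chromosome 14 from 45696239 to 45767770), kindlin-2, which activates integrins, measured 0.0474, 0.058 and 0.0872 CPM in SOX9-Halo budding organoids, 18.7, 21 and 22.4 in SOX9-Halo spheroids, 0.217, 0 and 0.232 in SOX9-mEGFP budding organoids, and 0.529, 0.418 and 1.08 in SOX9-mEGFP spheroids. Its SOX9-Halo budding libraries were at the count floor, and its rise in SOX9-Halo was at least 56.1-fold higher (adjusted p = 0.0013). The call for Fermt2 was lost without SOX9-mEGFP_budding replicate 3 (adjusted p = 0.0169).

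Among genes that rose in both lines, Ptgs1 (ENSMUSG00000047250, chromosome 2 from 36120438 to 36142287), cyclooxygenase 1, measured 0.237, 0.232 and 0.174 CPM in SOX9-Halo budding organoids, 87.7, 91.7 and 94.1 in SOX9-Halo spheroids, 0.217, 0.0928 and 0.139 in SOX9-mEGFP budding organoids, and 4.71, 6 and 7.1 in SOX9-mEGFP spheroids, with a difference of 3.40 ± 0.47 (adjusted p = 0.00015). Timp2 (ENSMUSG00000017466, chromosome 11 from 118191887 to 118246566), an inhibitor of metalloproteinases, measured 1.19, 2.58 and 1.77 CPM in SOX9-Halo budding organoids, 227, 218 and 208 in SOX9-Halo spheroids, 2.24, 1.7 and 3.67 in SOX9-mEGFP budding organoids, and 31.7, 41.1 and 56.7 in SOX9-mEGFP spheroids, with a difference of 2.81 ± 0.45 (adjusted p = 0.00057). Every SOX9-Halo spheroid library lay above every SOX9-mEGFP spheroid library for both genes. Of 9 tested HOX genes, which pattern the body axis, 4 were higher (Hoxa3, Hoxa5, Hoxa7 and Hoxa10, 44.4%, against 1.81% of all tested genes) and 0 lower. Hoxa7 (ENSMUSG00000038236, chromosome 6 from 52191471 to 52198834) measured 0.0474, 0.029 and 0.0872 CPM in SOX9-Halo budding organoids, 15.2, 17.9 and 20 in SOX9-Halo spheroids, 0.0362, 0 and 0.0232 in SOX9-mEGFP budding organoids, and 0.0264, 0 and 0 in SOX9-mEGFP spheroids. Hoxa10 (ENSMUSG00000000938, chromosome 6 from 52208164 to 52217834) measured 0, 0 and 0 CPM in SOX9-Halo budding organoids, 6.6, 5.78 and 5.15 in SOX9-Halo spheroids, 0, 0 and 0.0464 in SOX9-mEGFP budding organoids, and 0, 0 and 0 in SOX9-mEGFP spheroids. Only SOX9-Halo spheroids exceeded the count floor for these 2 genes, so that no fold and no bound of the difference can be given. Of the 4 higher HOX genes, 3 had a direction that the counts did not fix, Hoxa7 and Hoxa10 among them. The HOX count was 1 without SOX9-mEGFP_budding replicate 1 or 3, and 2 without SOX9-Halo_budding replicate 2 or any 1 spheroid library of either line. The call for Hoxa5 was lost without any 1 library other than SOX9-Halo_budding replicates 1 and 3 and SOX9-mEGFP_budding replicate 2 (adjusted p from 0.0106 to 0.11), and with the replicate number as a block within each line (adjusted p = 0.0175). The call for Hoxa7 was lost without any 1 of SOX9-mEGFP_budding replicates 1 or 3 (adjusted p from 0.0265 to 0.0266). The call for Hoxa10 was lost without SOX9-mEGFP_budding replicate 3 (adjusted p = 1), and with the replicate number as a block within each line (adjusted p = 0.0246).

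In the TGF-beta and BMP pathway, 3 of 32 tested genes were higher (Bmp1, Smad6 and Tgfb3, 9.38%, against 1.81% of all tested genes). A further 7 were lower (Bmp2, Bmp3, Bmp6, Bmp8b, Id1, Id3 and Tgfbi, 21.9%, against 5.56%). Bmp2, a ligand, and Id1, a target, both rose in SOX9-mEGFP (1.76 and 2.44) and were not called in SOX9-Halo. The difference was -3.10 ± 0.64 (adjusted p = 0.00383) for Bmp2 and -1.85 ± 0.27 (adjusted p = 0.00027) for Id1. The call for Bmp2 was lost without any 1 of SOX9-mEGFP_budding replicates 2 or 3, SOX9-Halo_spheroid replicates 2 or 3 or SOX9-mEGFP_spheroid replicate 3 (adjusted p from 0.0108 to 0.0147), and with the replicate number as a block within each line (adjusted p = 0.0114). Of 25 Wnt ligands and receptors, 3 were higher (Fzd2, Wnt4 and Wnt7b, 12%) and 4 lower (Fzd1, Fzd3, Fzd5 and Ror2, 16%). Only 1 was higher without SOX9-mEGFP_budding replicate 3. The lower count was 2 without any 1 library other than SOX9-Halo_budding replicates 1 and 2 and SOX9-mEGFP_spheroid replicate 1. The call for Fzd5 was lost without any 1 library other than SOX9-Halo_budding replicate 1 (adjusted p from 0.0176 to 0.0304). Wnt7b (ENSMUSG00000022382, chromosome 15 from 85419638 to 85466674), a Wnt ligand, measured 0.0237, 0 and 0 CPM in SOX9-Halo budding organoids, 108, 92.2 and 89.6 in SOX9-Halo spheroids, 0.0362, 0.0309 and 0.139 in SOX9-mEGFP budding organoids, and 15.6, 13.7 and 18.1 in SOX9-mEGFP spheroids. Its SOX9-Halo budding libraries were at the count floor. With the SOX9-mEGFP budding levels, of at most 0.139 CPM, taken as measured, the rise in SOX9-Halo was at least 5.13-fold higher (adjusted p = 0.00166). The call for Wnt7b was lost without SOX9-mEGFP_budding replicate 3 (adjusted p = 0.0803).

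Of 20 Notch pathway genes, 2 were higher (Dll1 and Notch3, 10%, against 1.81% of all tested genes) and 1 lower (Notch4, 5%, near the 5.56%). The call for Notch4 was lost without any 1 library other than SOX9-Halo_budding replicate 1, SOX9-Halo_spheroid replicate 1 and SOX9-mEGFP_spheroid replicate 1 (adjusted p from 0.0114 to 0.0233), and with the replicate number as a block within each line (adjusted p = 0.0299). Notch3 (ENSMUSG00000038146, chromosome 17 from 32339794 to 32385893), a receptor, measured 0.64, 2.81 and 1.54 CPM in SOX9-Halo budding organoids, 83.3, 101 and 82.1 in SOX9-Halo spheroids, 5.76, 4.61 and 5.36 in SOX9-mEGFP budding organoids, and 15.8, 28.5 and 41.4 in SOX9-mEGFP spheroids. It rose in both lines (5.74 and 2.44), with a difference of 3.30 ± 0.59 (adjusted p = 0.00138). Dll1 (ENSMUSG00000014773, chromosome 17 from 15587276 to 15597134), a ligand, measured 36.6, 47.5 and 40.3 CPM in SOX9-Halo budding organoids, 20.4, 11.7 and 15.5 in SOX9-Halo spheroids, 28.5, 29.7 and 30.6 in SOX9-mEGFP budding organoids, and 3.68, 1.94 and 1.42 in SOX9-mEGFP spheroids. It fell in both lines and less in SOX9-Halo, a difference of 2.27 ± 0.45 (adjusted p = 0.00303). The call for Dll1 was lost without any 1 of SOX9-Halo_budding replicate 1 or SOX9-mEGFP_spheroid replicate 2 (adjusted p from 0.0109 to 0.0127). Of 49 cell cycle and replication genes 2 were lower (4.08%, near the 5.56% of all tested genes) and 0 higher, and the lower count was 0 without SOX9-mEGFP_budding replicate 3 or SOX9-Halo_spheroid replicate 1 and 1 without any 1 of the others except SOX9-Halo_budding replicate 1. Of 84 cytoplasmic ribosomal proteins 0 were called, and of 13 mitochondrially encoded genes 0 were called. Of 15 epithelial markers, Epcam alone was lower (6.67%, near the 5.56% of all tested genes), by a difference of -1.01 ± 0.22 (adjusted p = 0.00584). The call for Epcam was lost without any 1 library other than SOX9-Halo_budding replicate 3, SOX9-mEGFP_budding replicate 1 and SOX9-mEGFP_spheroid replicate 3 (adjusted p from 0.0118 to 0.038), and with the replicate number as a block within each line (adjusted p = 0.0132).

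The differences were not spread evenly over the chromosomes. Chromosome 19 had a median difference of 0.88 over 656 tested genes, and 99 of them were higher (15.1%, against 1.81% of all tested genes). Per library, the median log2 level of its genes relative to the budding libraries and to the other chromosomes was -0.16 to -0.07 in SOX9-Halo budding organoids, 0.30 to 0.35 in SOX9-Halo spheroids, 0.04 to 0.22 in SOX9-mEGFP budding organoids and -0.21 to -0.13 in SOX9-mEGFP spheroids. Neither line's spheroids overlapped their budding organoids, and they moved in opposite directions. Chromosome 8 had a median difference of 0.42, with SOX9-Halo spheroids at 0.39 to 0.40 and the other libraries between -0.04 and 0.07. Chromosome 18 had a median difference of -0.65, with SOX9-mEGFP spheroids at 0.30 to 0.37 and the other libraries between -0.04 and 0.06, and 36 of its 465 tested genes were lower (7.74%, against 5.56% of all tested genes and 7.27% on chromosome 17).

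When the median deviation of each chromosome was removed from each library, an alternative chosen after seeing the data, 217 genes were higher and 960 lower. Of the 99 higher genes of chromosome 19, 9 were kept, and 9 of the 18 on chromosome 8 were kept. On chromosome 18, 21 genes were then lower in place of 36. Outside chromosomes 8, 15, 18 and 19, 183 of 14726 tested genes were higher (1.24%) and 832 lower (5.65%). Of 85 nuclear respiratory chain genes, 3 were higher (Cox8a, Ndufb8 and Ndufv1, 3.53%, against 1.81% of all tested genes). All 3 lie on chromosome 19, and 0 were higher after the chromosome medians were removed. Without SOX9-mEGFP_spheroid replicate 2, 1 was higher. The call for Cox8a was lost without SOX9-mEGFP_spheroid replicate 2 (adjusted p = 0.0127). The call for Ndufv1 was lost without any 1 library other than SOX9-Halo_budding replicate 2 (adjusted p from 0.0128 to 0.036). The counts of the brush-border, fat absorption, transporter, xenobiotic and REG lists were 14, 13, 13, 33 and 3 lower after the removal, as before it, while the identity factors went from 11 to 9 and the goblet products from 13 to 11. Chromosome 15 differed between the lines in both states (-0.25 to -0.06 in SOX9-Halo and 0.16 to 0.21 in SOX9-mEGFP), which left a median difference of 0.05. The cause of these shifts was not tested. With the medians removed, the difference was 5.19 for Aldh3b2, 5.56 for Nkd1, -8.41 for Cyp2c55 and -3.41 for Cdx1.

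**Figure D4:**
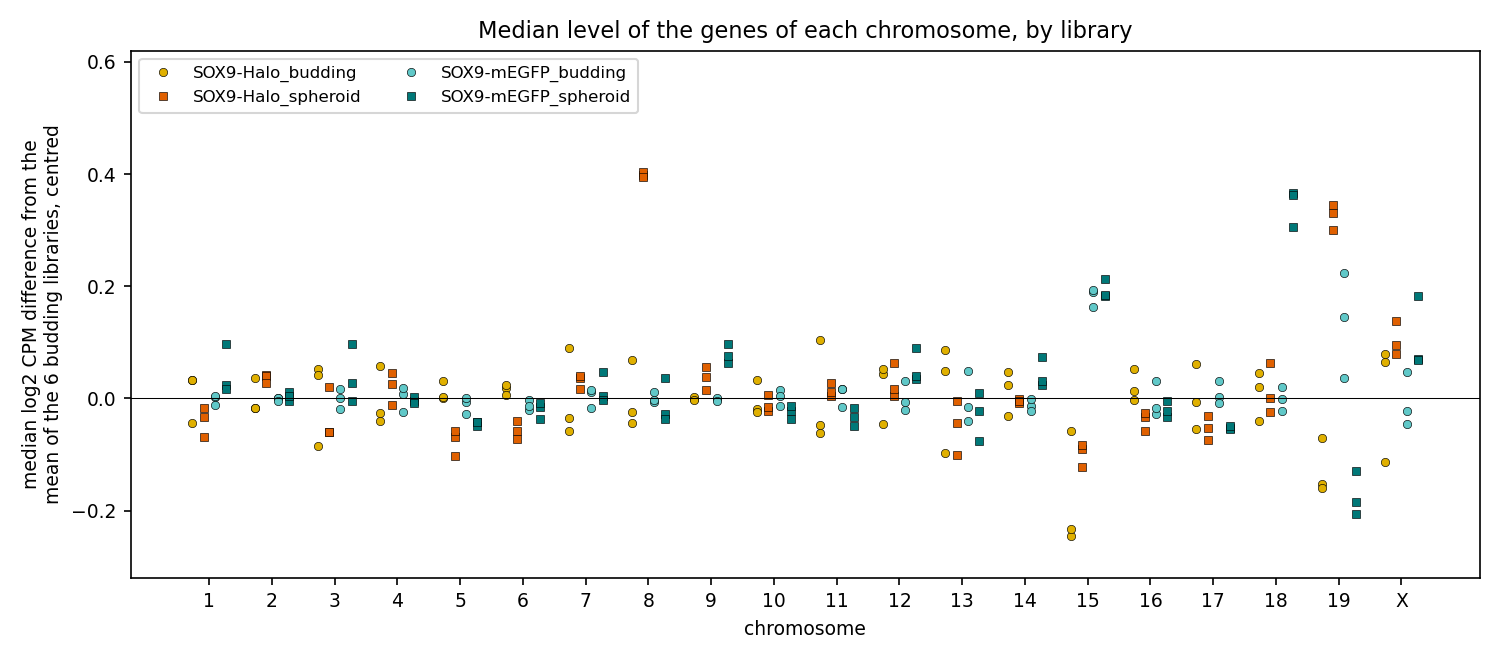
Median over tested genes of each chromosome of the log2 CPM difference from the mean of the 6 budding libraries, centred on all chromosomes, with 1 point per library and conditions by colour and shape. Chromosome 19 is at 0.30 to 0.35 in SOX9-Halo spheroids and -0.21 to -0.13 in SOX9-mEGFP spheroids, chromosome 8 is raised in SOX9-Halo spheroids and chromosome 18 in SOX9-mEGFP spheroids.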

How the data were processed

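Poly-A RNA of 15 libraries was sequenced, and 12 of them (3 each of SOX9-Halo_budding, SOX9-Halo_spheroid, SOX9-mEGFP_budding and SOX9-mEGFP_spheroid) are described here, each assigned by its label. The authors trimmed reads with cutadapt 4.5, used STAR to align them to mm39, and counted the uniquely aligned reads per gene with HTSeq 2.0.2 in union mode without strand, so that overlapping genes and antisense partners cannot be told apart. The deposited counts are whole numbers per gene and are not normalized. In the 12 libraries, 2.36% to 6.09% of reads lay on no gene and 9.65% to 11.2% on more than 1, and these entered neither library sizes nor tests. The deposited normalized table and the 7 tables of the authors' own comparisons (fold changes and p-values) were not used. Intervals and floors cover counting error only, since the reads carried no molecular identifiers.

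Genes were filtered with filterByExpr by condition (17560 left), scaled with TMM and fitted with edgeR 4.0.16 (quasi-likelihood, 1 coefficient per condition, all 15 libraries) in R 4.3.3 with limma 3.58.1. The common biological coefficient of variation was 0.302. Errors of log2 values are standard errors from this fit, and adjusted p-values are after Benjamini-Hochberg over all tested genes. The labels number the libraries as replicates, and the study calls them biological replicates without saying how cultures were separated. The study gives a range of passages for each condition, so replicates of a condition may differ in passage. The p-values measure the spread between these libraries. DESeq2 1.42.0 was an alternative. Python 3.11.15, pandas 2.3.3, numpy 2.4.6 and matplotlib 3.10.9 made tables and plots. Scripts were tested on simulated counts. Coordinates are GRCm39 (GENCODE M39).

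The genes named are the 8 called genes with the most positive and the 8 with the most negative difference among those with a mean of at least 5 CPM and a fixed direction, up to 4 per sign called in opposite directions, up to 3 called members of each of 54 gene lists, and some that the study names, 140 in all, of which a part is printed. Some named genes are not reported here. The comparison and the lists were chosen with earlier results of these data known, so that counts over a list describe it and are not independent evidence.

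Replicate numbers were checked for pairing by correlating the deviations of same-numbered libraries from their condition's mean over 10278 genes. Between SOX9-Halo_budding and SOX9-Halo_spheroid all 3 pairs exceeded 0.1 (0.242 to 0.418, other-numbered mean -0.175), and in the other 5 pairs of conditions at least 1 pair did not, so the number was used as a block only in alternatives.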

Additional observations from a re-analysis of the deposited data

Results flagged for a closer look

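The whole comparison is a test of a difference between 2 lines under the same contrast, and each of its calls is therefore a result in which the lines differed. There were 318 genes with the more positive change in SOX9-Halo and 977 with the more negative one. In 52 genes the change was called in opposite directions in the lines, 10 rising in SOX9-Halo and falling in SOX9-mEGFP and 42 the reverse. No cause of these differences was tested, and tag, line, passage and second transgene cannot be told apart.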

How the results depend on the processing

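The call for more positive changes in SOX9-Halo depended more on the settings than the call for more negative ones. In place of 318 higher genes there were 534 with DESeq2, 123 when tested against a log2 change of 1, 584 at an adjusted p of 0.05, 208 at a fold change of 4, and 180 to 336 with 1 library left out. In place of 977 lower genes there were 1294 with DESeq2 and 663 when tested against a log2 change of 1. There were 1472 at an adjusted p of 0.05, 873 at a fold change of 4, and 719 to 918 with 1 library left out. Higher and lower counts were 324 and 952 with RLE scaling, 302 and 1039 with library sizes alone, 471 and 1408 with no filter on low counts, 379 and 1050 with only the 12 SOX9 libraries, and 324 and 1007 with no mean count threshold. With alternatives added after seeing the data they were 217 and 960 with chromosome medians removed and 371 and 1081 with GC bins removed. With the replicate block they were 381 and 1109, and with the block within each line 353 and 1009, neither by over 1.5 times. The difference for Sox9 ran from -0.15 to 0.95 and for Ly6a from -0.81 to 0.55 with 1 library left out. Of the 131 named genes that were called, 86 kept the call in all 12 leave-outs and 45 lost it in at least 1. Depth limits what can be said of the 340 called genes with a condition at or under the count floor, of which 17 had a direction the counts did not fix.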

Other observations

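Further groups differed in single members. For the counts that follow, 5.56% of all tested genes were lower and 1.81% higher. Of 23 integrin and laminin genes, 4 were lower (Itga1, Itga2, Itga7 and Lamb1, 17.4%) and 1 higher (Itga9, 4.35%). Itga2, the collagen-binding alpha 2 chain, changed by -6.97 in SOX9-Halo and 0.54 in SOX9-mEGFP, a difference of -7.52 on the log2 scale (edgeR, adjusted p = 1.9e-05). The call for Itga7 was lost without any 1 library other than SOX9-Halo_budding replicate 3, SOX9-Halo_spheroid replicate 1 and SOX9-mEGFP_budding replicate 1 (adjusted p from 0.0118 to 0.0242), and with the replicate number as a block within each line (adjusted p = 0.0137). Of 22 chemokine and cytokine genes, 2 were lower (Ccl28 and Tnf, 9.09%) and 1 higher (Il33, 4.55%). The call for Tnf was lost without any 1 library other than SOX9-Halo_spheroid replicate 1 and SOX9-mEGFP_budding replicate 3 (adjusted p from 0.0104 to 0.0541), and with the block within each line (adjusted p = 0.0178). The lower count of this list was 4 without SOX9-Halo_spheroid replicate 1, and 1 without any 1 of SOX9-Halo_budding replicate 3, SOX9-mEGFP_budding replicates 1 or 2, SOX9-Halo_spheroid replicates 2 or 3, or SOX9-mEGFP_spheroid replicates 1 or 2. Ccl28, a chemokine of mucosal surfaces, had 22.7 to 53.8 CPM in SOX9-Halo budding organoids, 0.0564 to 0.107 CPM in SOX9-Halo spheroids and 11.1 to 24.2 CPM in SOX9-mEGFP spheroids, a difference of -7.62 (adjusted p = 1.8e-06). Of 18 gastric epithelial genes, 3 were lower (Anxa10, Atp4a and Mucl3, 16.7%) and 0 higher. Anxa10 changed by 3.82 in SOX9-mEGFP and by 0.13 in SOX9-Halo, a difference of -3.69 (adjusted p = 0.00067). The call for Mucl3 was lost without SOX9-Halo_budding replicate 1 or 2 (adjusted p from 0.0167 to 0.0362).

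Snrpn, an imprinted gene of a splicing protein, had 6.02 to 9.66 CPM in SOX9-Halo budding organoids, at most 0.0268 CPM in SOX9-Halo spheroids, 6.82 to 12.9 CPM in SOX9-mEGFP budding organoids and 4.54 to 6.48 CPM in SOX9-mEGFP spheroids, so that its change was at least 48.5-fold lower in SOX9-Halo (adjusted p = 2.8e-06). Dusp6, a phosphatase induced by ERK signalling, was not called in SOX9-Halo (0.35) and rose in SOX9-mEGFP (2.25), a difference of -1.90 (adjusted p = 0.00025). Hkdc1, a hexokinase relative, had a difference of -6.67 (adjusted p = 3.3e-06). Of 25 glycolysis genes 1 was higher and 1 lower (4% each, against 1.81% and 5.56% of all tested genes). The higher one, Pgam1, lies on chromosome 19. Once chromosome medians were removed its difference was 0.91 (edgeR, adjusted p = 0.0602), and 0 glycolysis genes were higher.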
